A study of Homo sapiens with 12 samples.

Results

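Control libraries of HCC827 were set against control libraries of H1975, a pair of established lines of human non-small-cell lung cancer, to describe how the lines differed when both carried a control vector and no added ZNF263. Each line had 2 control libraries, so that 4 of the 12 RNA-seq libraries of the series were compared. Of 20030 rows in the deposited table, 27 had gene names turned into calendar dates and were dropped. Of the rest, 15906 genes were filled in all 4 libraries, and the 11379 genes with at least 1 FPKM (fragments scaled by gene length and library size) in 2 or more of them were tested. A difference is HCC827 minus H1975 on the log2(FPKM + 1) scale, on which changes of weakly expressed genes come out too small.

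The series asks how ZNF263, a zinc finger transcription factor, bears on the response of EGFR-mutant lung adenocarcinoma to EGFR-targeted therapy. Every group was cultured in DMEM with stepwise exposure to osimertinib, an inhibitor of mutant EGFR, so the drug was shared by all of them. With no unexposed group, differences inherent to the lines and changes that arose in each line under the drug cannot be told apart. The groups used here were HCC827 control and H1975 control, which carried a control vector, with HCC827 ZNF263 and H1975 ZNF263, which overexpressed ZNF263 (2 libraries each), for comparison. The meaning of OR, added to each line's name in the titles, is not explained, and the labels do not state the dose, the time since the last exposure or separate cultures. The p-values therefore reflect no more than the spread among these libraries, part of which may be technical.

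EGFR is a receptor tyrosine kinase that binds EGF-like ligands, pairs with other ERBB receptors and signals through RAS, MAPK and PI3K to growth and survival. HCC827 is known for an in-frame deletion in the EGFR kinase domain together with extra copies of the gene, and H1975 for an activating point mutation with a second, gatekeeper substitution on the same allele. Cells of lung adenocarcinoma can keep the alveolar programme of the distal lung, which NKX2-1 drives, and they can also move along an axis between epithelial and mesenchymal states. Each EGFR genotype was represented by 1 line, so genotype and line cannot be told apart.

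The label of both lines as lung cancer epithelium was checked against marker genes. KRT7 had 1249 and 1092 FPKM in HCC827, against 1808 and 1755 FPKM in H1975, and EPCAM had 271 and 281 FPKM in HCC827, against 219.9 and 229.6 FPKM in H1975. Keratin and adhesion markers of epithelium were thus abundant in both lines, but the alveolar markers were present mainly in HCC827. Endothelial markers summed to at most 0.462 FPKM in an HCC827 library and 0.841 FPKM in an H1975 library over 7 measured genes. Immune markers summed to between 43.6 and 44.4 FPKM in HCC827 and between 88.5 and 89.7 FPKM in H1975 over 10 measured genes, most of it CD68, a lysosomal protein. Fibroblast markers summed to between 20.7 and 22.3 FPKM in HCC827 and between 30.9 and 34.3 FPKM in H1975 over 8 measured genes. In a bulk library, fewer cells of a kind and less RNA per cell cannot be told apart.

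Depth was read from the FPKM values, which are whole multiples of what 1 read is worth. Whole read numbers were found for 99.7% of 15642 genes, within 0.02 of a whole number, against 0.133% of genes with shuffled values. Summed over these genes, 15559265 and 14981265 reads stood behind the HCC827 control libraries and 30579624 and 28331944 reads behind the H1975 control libraries. For the median gene 1 FPKM stood for 70.3 and 67.1 reads in HCC827 and for 134 and 124 reads in H1975. The median SD between the 2 libraries of a line was 0.0856 in HCC827 and 0.0473 in H1975 on the log2 scale.

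Differences were tested with limma, and a gene was called at a Benjamini-Hochberg adjusted p under 0.05 together with a difference of at least 1 in size. By that rule 2814 genes (24.7%) were called, 1354 of them higher in HCC827 (11.9%) and 1460 lower (12.8%). An adjusted p under 0.05 alone was reached by 8811 genes (77.4%), and the libraries of the lines did not overlap for 10053 genes (88.3%), so the size of a difference says more here than its p. The median difference over all genes tested was -0.0425 and the median size 0.534. Among the calls, 320 genes were higher and 343 lower by at least 2, and 25 were higher and 39 lower by at least 4.

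**Figure D1:**
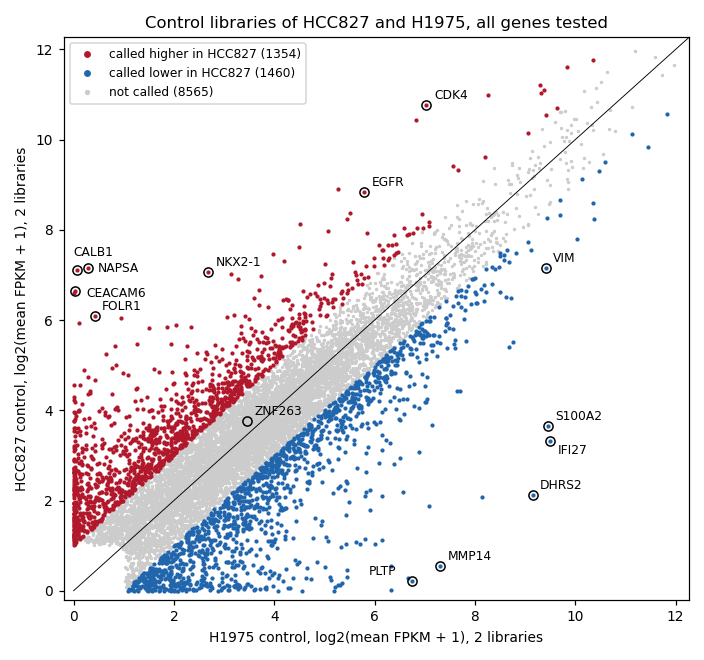
Mean expression of all 11379 genes tested in 2 HCC827 control libraries (vertical axis) against 2 H1975 control libraries (horizontal axis), both as log2(mean FPKM + 1). Red points were called higher in HCC827 (1354), blue points lower (1460) and grey points were not called, and circled genes are named in the text. CALB1, NAPSA and CEACAM6 lie along the left edge, near 0 in H1975, whereas MMP14 and PLTP lie along the lower edge, near 0 in HCC827.

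Among genes that averaged at least 10 FPKM in their higher line, the largest positive differences included surfactant-related and cell-surface genes that H1975 barely expressed. CALB1 had 125 and 149 FPKM in HCC827, against 0.0687 and 0.0247 FPKM in H1975, a difference of 7.04 ± 0.10 (SE, limma adjusted p = 2.58e-17). CALB1 encodes calbindin, a calcium-binding protein. NAPSA had 156 and 128 FPKM in HCC827, against 0.0759 and 0.349 FPKM in H1975, a difference of 6.88 ± 0.12 (SE). NAPSA encodes napsin A, the aspartic protease that helps mature surfactant protein B and serves as a marker of lung adenocarcinoma. CEACAM6, a cell-surface adhesion protein, had 88.4 and 109 FPKM in HCC827, against 0.0335 and 0.0121 FPKM in H1975. SFTA2, a secreted surfactant-associated protein, had 104 and 86.7 FPKM in HCC827 and was listed at 0 in both H1975 libraries, which made it at least 452-fold higher in HCC827 against a floor of 3 reads per library. In each of these genes the HCC827 libraries lay far above both H1975 libraries.

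FOLR1, the folate receptor alpha, had 69.4 and 65.5 FPKM in HCC827, against 0.409 and 0.265 FPKM in H1975. HPGD, the enzyme that inactivates prostaglandins, had 38.0 and 45.3 FPKM in HCC827, against 0.629 and 0.919 FPKM in H1975. EDN2, an endothelin peptide, had 27.0 and 24.6 FPKM in HCC827, against 0.324 and 0.10 FPKM in H1975. The other genes among the 12 with the largest positive difference were BEX3, ECH1 (an enzyme of fatty acid oxidation), GAL (the neuropeptide galanin), VAMP5 (a vesicle fusion protein) and MAGEA6, with differences of 5.83, 5.11, 4.69, 4.60 and 4.54. MAGEA6 is nearly identical to MAGEA3, so the split of reads between them is uncertain.

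By the same rule the largest negative differences fell on genes of varied function, among them the matrix protease MMP14. DHRS2 had 3.08 and 3.66 FPKM in HCC827, against 550.2 and 583 FPKM in H1975, a difference of -7.02 ± 0.09 (SE, limma adjusted p = 7.23e-18). DHRS2 is a short-chain dehydrogenase. MMP14, a membrane-bound protease that cleaves collagen and activates other metalloproteases, had 0.464 and 0.471 FPKM in HCC827, against 157 and 158 FPKM in H1975. For both genes the libraries of a line lay close together and the lines were far apart.

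S100A2, a calcium-binding protein of stratified epithelium, had 13.7 and 9.30 FPKM in HCC827, against 682 and 721 FPKM in H1975. IFI27, an interferon-induced protein, had 12.5 and 5.53 FPKM in HCC827, against 665 and 781 FPKM in H1975. The HCC827 libraries were themselves uneven for IFI27, yet both stayed far below the H1975 libraries. SIRPA, the receptor for CD47, had 0.0955 and 0.10 FPKM in HCC827, against 38.8 and 38.2 FPKM in H1975. PLTP (phospholipid transfer), CRIP1 (a LIM domain protein), IGFBP7 (a secreted binding protein), WNT9A (a Wnt ligand), TMEM158 (a membrane protein) and CT45A1 (a cancer-testis antigen with near-identical copies) had differences of -6.53, -6.38, -6.30, -5.77, -5.22 and -5.17.

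**Figure D2:**
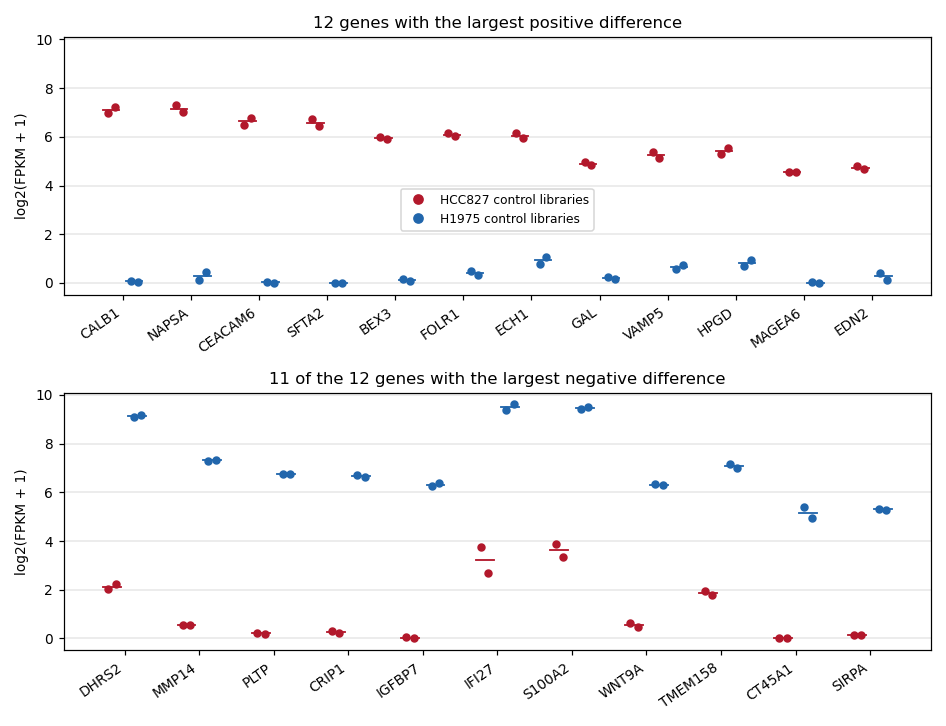
Values of the 12 genes with the largest positive (upper panel) and 11 of the 12 with the largest negative (lower panel) difference, as log2(FPKM + 1). Points are single libraries, HCC827 in red on the left of each gene and H1975 in blue on the right, and bars are the mean of 2 libraries. For every gene shown the libraries of the lines do not overlap.

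A small set of genes was present in 1 line and nearly missing in the other. With at least 10 FPKM in both libraries of one line and under 0.1 FPKM in both of the other, 20 genes were specific to HCC827 and 13 to H1975. The highest in HCC827 were CALB1, CEACAM6, SFTA2, KCNK1 and MAGEA6. KCNK1, a potassium channel, had 22.6 and 23.0 FPKM in HCC827, against 0.0848 and 0.0916 FPKM in H1975. The highest in H1975 were IGFBP7, RNASE7, CT45A1, GPX3 and FAM20C. RNASE7, an antimicrobial ribonuclease of skin, had 0.0813 and 0.0426 FPKM in HCC827, against 36.4 and 35.6 FPKM in H1975. FAM20C, a kinase of the secretory pathway, had 0.0424 and 0.0296 FPKM in HCC827, against 18.8 and 19.1 FPKM in H1975. GPX3, a secreted glutathione peroxidase, was listed at 0 in both HCC827 libraries and had 23.8 and 21.1 FPKM in H1975, at least 210-fold lower in HCC827 against the floor of 3 reads per library.

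Gene lists were then described by the number of tested members called in each direction, beside 11.9% higher and 12.8% lower over all genes, and by the median difference, beside -0.0425 over all genes. The lists were written from textbook knowledge with earlier results of these data known. A member that passed the filter only through its higher line had to differ, so counts over tested members describe the lists and support nothing beyond that.

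**Figure D3:**
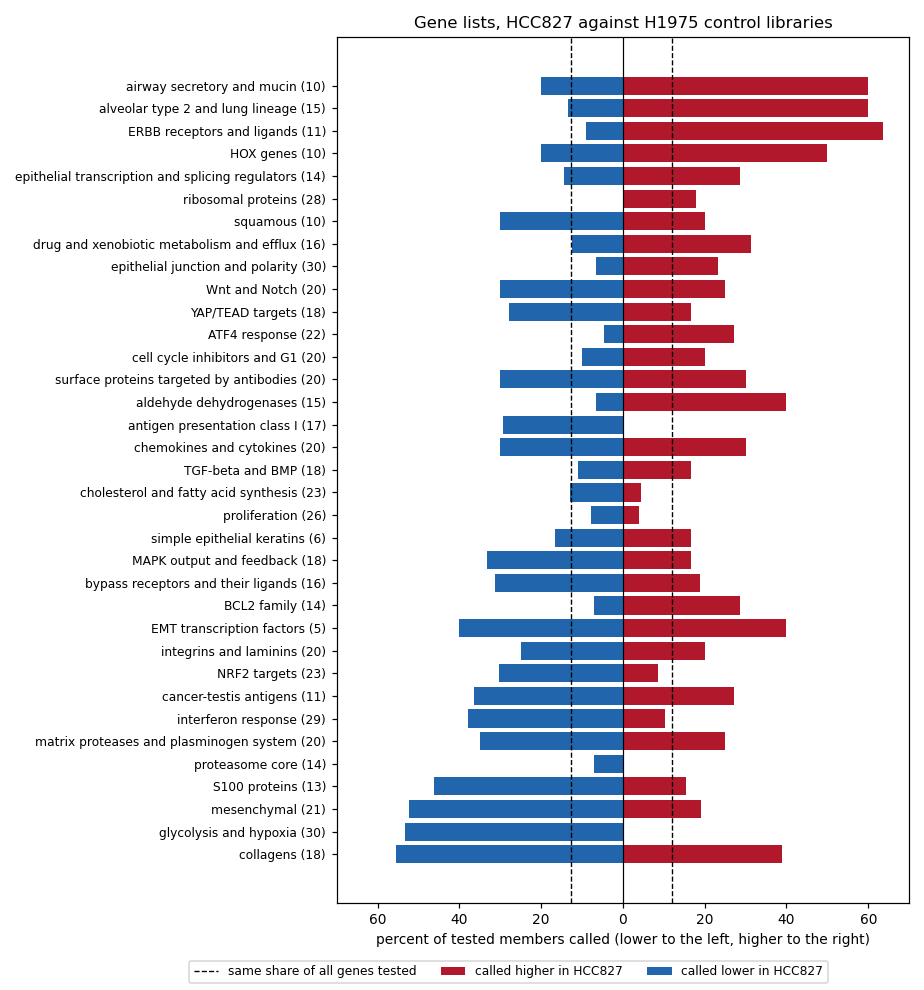
Share of tested members of each gene list called higher (red, to the right) or lower (blue, to the left) in HCC827 than in H1975 control libraries, for lists with 5 or more tested members (number in parentheses), ordered by median difference. Dashed lines mark the share of all 11379 genes, 11.9% higher and 12.8% lower. Airway, alveolar and ERBB genes have the largest shares called higher, whereas collagens, glycolysis and hypoxia genes and mesenchymal genes have the largest shares called lower.

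Alveolar genes were higher in HCC827 for the most part. Of 23 alveolar type 2 and lung lineage genes 15 were tested, 9 were called higher in HCC827 and 2 lower, with a median of 1.57 (1.52 with genes listed at 0 set to the floor of 3 reads). NKX2-1, the transcription factor that drives surfactant genes, had 134 and 130.2 FPKM in HCC827, against 4.70 and 6.09 FPKM in H1975, a difference of 4.39 ± 0.10 (SE). SFTPB, which encodes surfactant protein B, had 10.4 and 10.8 FPKM in HCC827 and was listed at 0 in both H1975 libraries, at least 424-fold higher in HCC827. FOXA1, a pioneer factor of lung epithelium, had 14.2 and 16.5 FPKM in HCC827, against 1.15 and 1.66 FPKM in H1975. SFTPA1, SFTPA2, HOPX and AQP4 were called higher from low levels, between 1.01 and 3.96 FPKM in HCC827 libraries. SFTPA1 and SFTPA2 are near-identical copies, so the split between them is uncertain. SFTPC, the most specific surfactant gene of alveolar type 2 cells, was at 0 in all 4 libraries.

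The exceptions in the list were ABCA3 and FOXA2. ABCA3, the lipid transporter of lamellar bodies, had 4.3 and 3.92 FPKM in HCC827, against 18.7 and 17.3 FPKM in H1975. FOXA2, a forkhead factor of endoderm, had 1.99 and 1.45 FPKM in HCC827, against 6.74 and 7.54 FPKM in H1975. LPCAT1, which makes surfactant lipid, had 249 and 239.5 FPKM in HCC827, against 142 and 146 FPKM in H1975, and was not called.

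The promoters of SFTA2 and SFTPA1 are shown because these genes were listed at 0 in both H1975 libraries and hold the letters marked below. They are RefSeq windows from 250 bases before to 50 after the gene start (GRCh38.p14, printed 5′ to 3′ on the gene's strand). Capitals mark CTCAAG or its reverse complement CTTGAG, the core bound by NKX2-1. The SFTA2 window is chr6:30932121-30932420, strand -, and the SFTPA1 window is chr10:79610689-79610988, strand +.
SFTA2: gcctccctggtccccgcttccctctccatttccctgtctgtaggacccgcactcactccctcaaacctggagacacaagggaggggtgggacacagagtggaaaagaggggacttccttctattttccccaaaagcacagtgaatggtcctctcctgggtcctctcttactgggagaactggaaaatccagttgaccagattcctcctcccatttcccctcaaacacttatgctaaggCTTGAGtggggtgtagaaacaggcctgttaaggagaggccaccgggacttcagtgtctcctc
SFTPA1: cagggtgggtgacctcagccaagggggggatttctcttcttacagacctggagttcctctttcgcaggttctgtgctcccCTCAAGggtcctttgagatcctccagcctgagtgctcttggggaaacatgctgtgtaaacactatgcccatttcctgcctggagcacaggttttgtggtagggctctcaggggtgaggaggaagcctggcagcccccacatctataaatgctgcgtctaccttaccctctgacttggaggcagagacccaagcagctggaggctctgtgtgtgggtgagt
CTCAAG on either strand occurred in 12.4% of 35116 promoter windows. Among list genes with a window, 6 of 13 (46.2%) held it in at least 1 window, namely NKX2-1, SFTPA1, SFTPA2, NAPSA, FOXA1 and SFTA2, beside 14.1% of 9262 tested genes with a window. SFTPB, also listed at 0 in both H1975 libraries, was not among these 6. A match is a description of letters and not a binding site.

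Airway secretory and mucin genes differed in both directions. Of 26 genes 10 were tested, 6 were called higher in HCC827 and 2 lower, with a median of 2.40. MUC16, a large membrane mucin known as CA125, had 30.6 and 31.9 FPKM in HCC827, against 0.777 and 0.794 FPKM in H1975. LCN2, an iron-binding defence protein, had 14.1 and 16.9 FPKM in HCC827, against 0.884 and 0.726 FPKM in H1975. CEACAM1, CEACAM5 and MUC13 were called higher, by 2.62, 2.37 and 2.43, and reads of CEACAM genes may be split between related copies. MUC1, a membrane mucin, had 4.26 and 4.36 FPKM in HCC827, against 27.6 and 32.4 FPKM in H1975. SLPI, a protease inhibitor of airway fluid, had 6.78 and 7.79 FPKM in HCC827, against 54.2 and 57.9 FPKM in H1975. Together with CEACAM6 these were the 6 members called higher, and MUC1 and SLPI were the 2 called lower.

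Squamous genes were also divided, with 10 of 19 tested, 2 called higher and 3 lower. TP63, the master regulator of basal and squamous epithelium, had 1.95 and 1.72 FPKM in HCC827, against 15.3 and 15.9 FPKM in H1975. SERPINB5, maspin, had 4.57 and 4.17 FPKM in HCC827, against 43.3 and 41.5 FPKM in H1975. DSC3, a desmosomal cadherin, went the other way, with 6.83 and 8.15 FPKM in HCC827, against 0.125 and 0.136 FPKM in H1975. Among 6 tested members of the list named for simple epithelial keratins, KRT80 was called higher and KRT81 lower, and neither is a keratin of simple epithelium. KRT7, KRT8, KRT18 and KRT19 were not called, with differences between -0.61 and 0.61. Of 14 neuroendocrine genes 3 were tested and 1, ENO2, was called lower. Of 11 immune genes 3 were tested and 1, CD14, was called lower (2 genes with 0.1 added before the log, none with the filter at 5 FPKM), with 0.762 and 0.190 FPKM in HCC827, against 2.22 and 3.96 FPKM in H1975.

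Genes of cell junctions were more often called higher than lower in HCC827. All 30 junction and polarity genes were tested, 7 were called higher in HCC827 (23.3%, beside 11.9% of all genes) and 2 lower (6.67%, beside 12.8%), with a median of 0.35. CDH1, E-cadherin, had 126 and 135 FPKM in HCC827, against 64.0 and 69.1 FPKM in H1975, a difference of 0.96 that did not reach the size needed for a call. CDH1 was called higher, by between 1.01 and 1.17, with values rescaled to a common total, with median-of-ratios scaling, after quantile normalization, without the first HCC827 library and without the second H1975 library. The tight junction genes TJP3, CLDN3, PATJ and OCLN were called higher, by 2.47, 1.92, 1.69 and 1.27. RAB25, a trafficking GTPase of epithelium, had 0.201 and 0.211 FPKM in HCC827, against 24.6 and 26.5 FPKM in H1975, the largest difference of the list at -4.46 ± 0.10 (SE). PRSS8, a membrane-anchored serine protease, had 6.78 and 8.0 FPKM in HCC827, against 21.5 and 19.1 FPKM in H1975.

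Transcription factors that keep cells epithelial differed from each other in direction. Of 14 regulators, all tested, 4 were called higher and 2 lower, with a median of 0.53. ELF3, an ETS factor of epithelium, had 108 and 93.0 FPKM in HCC827, against 10.8 and 13.1 FPKM in H1975. KLF5 and OVOL2 were called higher by 1.85 and 1.66, and ESRP2, a splicing regulator, by 1.02, just past the threshold. ESRP2 fell below it without the second H1975 library (0.996) and, by a small margin, without the first HCC827 library. EHF, another ETS factor, had 1.25 and 1.43 FPKM in HCC827, against 7.57 and 7.77 FPKM in H1975. GRHL2 and ESRP1 were not called, at 0.48 and 0.83.

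Mesenchymal genes were more often lower than higher in HCC827. Of 28 genes 21 were tested, 11 were called lower and 4 higher, with a median of -1.04. VIM, the intermediate filament vimentin, had 139.7 and 142 FPKM in HCC827, against 691 and 665 FPKM in H1975, a difference of -2.26 ± 0.08 (SE). LOX, which cross-links collagen, had 0.366 and 0.482 FPKM in HCC827, against 24.2 and 23.8 FPKM in H1975. ITGA5, CAVIN1, TAGLN, MYL9 and CALD1, genes of fibronectin binding, caveolae and contraction, were called lower, with differences between -2.47 and -1.28. CDH2, N-cadherin, had 5.24 and 5.14 FPKM in HCC827, against 0 and 0.00684 FPKM in H1975. FN1, fibronectin, had 318 and 335 FPKM in HCC827, against 124 and 121 FPKM in H1975. LUM, the proteoglycan lumican, and S100A4 were called higher as well, by 2.46 and 2.05. Vimentin was therefore present in both lines at over 100 FPKM, and N-cadherin was near 0 in H1975.

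Of 9 EMT transcription factors 5 were tested and split by family. SNAI1 had 2.83 and 3.27 FPKM in HCC827, against 22.3 and 21.5 FPKM in H1975, and SNAI2 had 9.15 and 9.37 FPKM in HCC827, against 41.7 and 42.0 FPKM in H1975. TWIST2 had 7.09 and 5.90 FPKM in HCC827 and was listed at 0 in both H1975 libraries, at least 126-fold higher in HCC827, and TWIST1 had 2.89 and 2.92 FPKM in HCC827, against 0 and 0.0577 FPKM in H1975. SNAIL-family genes were thus lower and TWIST-family genes higher in HCC827. ZEB1 was not called, with 0.878 and 1.10 FPKM in HCC827, against 1.25 and 1.33 FPKM in H1975.

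Matrix genes differed by chain. Of 27 collagen genes 18 were tested, 10 were called lower and 7 higher, with a median of -1.22 (-1.20 with genes listed at 0 set to the floor). COL7A1, the anchoring fibril collagen, had 0.433 and 0.298 FPKM in HCC827, against 39.6 and 46.2 FPKM in H1975. COL17A1, a hemidesmosome collagen, had 26.5 and 25.3 FPKM in HCC827, against 135 and 128 FPKM in H1975. Fibrillar COL1A2 and COL5A1 were called lower, at -3.62 and -3.35. The basement membrane chains COL4A2, COL4A3, COL4A4 and COL4A5 and COL18A1 were called higher, and COL4A2 had 8.0 and 7.61 FPKM in HCC827, against 0 and 0.0292 FPKM in H1975.

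Among 20 tested integrins and laminins 4 were called higher and 5 lower. LAMA5 and LAMB1, chains of a basement membrane laminin, had differences of 3.65 and 2.40. ITGB4, the hemidesmosome integrin, had 6.61 and 5.51 FPKM in HCC827, against 82.0 and 84.3 FPKM in H1975, and ITGA2, a collagen receptor, was called lower, at -2.26. Of 20 tested matrix proteases and plasminogen genes 5 were called higher and 7 lower. Beside MMP14, MMP1, a collagenase, had 2.59 and 2.62 FPKM in HCC827, against 22.1 and 19.4 FPKM in H1975. MMP24 had 44.5 and 42.0 FPKM in HCC827, against 1.66 and 1.17 FPKM in H1975, and TIMP2, a metalloprotease inhibitor, had 88.4 and 85.2 FPKM in HCC827, against 17.6 and 18.3 FPKM in H1975. PLAU and PLAUR, the urokinase and its receptor, were not called, at -0.66 and -0.48.

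EGFR itself, at chr7:55019021-55211628 on the plus strand (GRCh38, GENCODE 29), had 442 and 469.5 FPKM in HCC827, against 54.3 and 54.9 FPKM in H1975, a difference of 3.04 ± 0.08 (SE, limma adjusted p = 6.86e-15). Of 16 ERBB receptors, ligands and feedback genes 11 were tested, 7 were called higher and 1 lower, with a median of 1.29. Of the ligands, AREG had 152 and 150.1 FPKM in HCC827, against 35 and 28.0 FPKM in H1975, and EREG had 50.5 and 55.0 FPKM in HCC827, against 11.1 and 11.3 FPKM in H1975. HBEGF and BTC were called higher by 1.47 and 1.29. TGFA was the exception, with 0.569 and 0.517 FPKM in HCC827, against 28.6 and 27.1 FPKM in H1975, a difference of -4.22 ± 0.10 (SE). Of the receptors, ERBB3 was called higher by 1.01, a call lost without the second HCC827 library (0.940) or the first H1975 library (0.965), and ERBB2 was not called, with 22.8 and 22.6 FPKM in HCC827, against 16.1 and 17.5 FPKM in H1975. ERRFI1, a feedback inhibitor of EGFR, had 108 and 113 FPKM in HCC827, against 42.2 and 43.4 FPKM in H1975. The members called lower numbered 2 with values rescaled to a common total per library and with 0.1 in place of 1 added before the log.

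Genes near EGFR on chromosome 7 were higher too. Within 5 Mb 16 genes were tested, 12 were called higher in HCC827 and none lower, with a median of 1.51. The nearest were SEC61G, a subunit of the protein translocation channel, at 2.73, LANCL2 at 3.87 and VOPP1 at 3.61. LANCL2 had 127 and 130.0 FPKM in HCC827, against 7.83 and 7.89 FPKM in H1975, and VOPP1 had 290.4 and 269 FPKM in HCC827, against 22.1 and 21.9 FPKM in H1975. Farther along, CCT6A, a chaperonin subunit, differed by 1.68 and CHCHD2, a mitochondrial protein, by 1.13 (0.992 without the first HCC827 library, no longer a call). SEC61G, EGFR, LANCL2 and VOPP1 thus differed more than any gene farther away in the window. Copy number was not measured here.

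A shorter stretch of chromosome 12 held 4 genes with differences above 3, among them CDK4, the cyclin D-dependent kinase that phosphorylates RB1. CDK4, at chr12:57747727-57756013 (GRCh38, GENCODE 29), had 1866 and 1624 FPKM in HCC827, against 133 and 128 FPKM in H1975, a difference of 3.73 ± 0.09 (SE). TSPAN31, OS9 and PIP4K2C beside it differed by 3.5, 3.61 and 3.63. OS9, a protein of ER quality control, averaged 1393 ± 69.2 FPKM in HCC827 and 113 ± 0.657 FPKM in H1975 (SD, n = 2 each). Between them lay genes without such a difference. DTX3 was called lower, at 0.820 FPKM in HCC827 and 6.59 FPKM in H1975 on average, and AGAP2 was called higher by 1.0 only. The AGAP2 call was lost without the first H1975 library (0.865), without the first HCC827 library (0.972) and after quantile normalization (0.973). TSPAN31 overlaps CDK4 and AGAP2 in the annotation, and without a stated strand their reads may be mixed. On the far side of CDK4, TSFM and CTDSP2 were not called, at -0.78 and -0.25. A search of all chromosomes for 4 or more genes with a difference of at least 3 among 12 neighbours found this stretch, chr12:57591174-57756013, and no other.

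**Figure D4:**
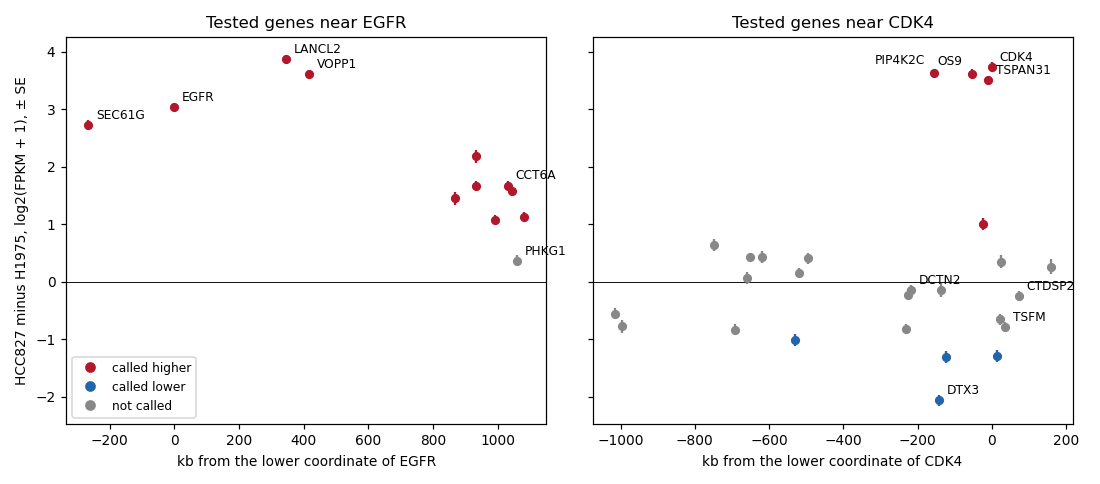
Difference between HCC827 and H1975 control libraries (vertical axis, log2(FPKM + 1), bars are SE) for tested genes near EGFR (left) and near CDK4 (right), by distance in kb from the lower coordinate of EGFR or CDK4 (FIGNL1, DDC, GRB10 and COBL, far below EGFR, are not drawn). Red genes were called higher in HCC827, blue genes lower and grey genes were not called. Near EGFR, SEC61G, EGFR, LANCL2 and VOPP1 differ by between 2.73 and 3.87, and near CDK4 only PIP4K2C, OS9, TSPAN31 and CDK4 exceed 3, while the other genes drawn there differ by between -2.06 and 1.0.

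MAPK genes were called in both directions. Of 20 MAPK output and feedback genes 18 were tested, 3 were called higher and 6 lower, with a median of -0.15. DUSP6, a phosphatase induced by ERK, had 16.8 and 16.8 FPKM in HCC827, against 16.8 and 17.7 FPKM in H1975, and was not called. PHLDA1 had 22.3 and 22 FPKM in HCC827, against 78.5 and 76.8 FPKM in H1975, and SPRY4, a feedback inhibitor, had 0.928 and 0.795 FPKM in HCC827, against 4.5 and 3.68 FPKM in H1975. SPRY2 and EGR1 were called higher, by 1.28 and 1.43. CCND1 and MYC, at 0.27 and 0.11, were not called. The members called lower numbered 3 with median-of-ratios scaling and 3 without the first H1975 control library, and ETV4, DUSP4 and ETV5 lay close to the size threshold, at -1.04, -1.04 and -1.01.

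Receptors that can bypass EGFR differed one by one. Of 31 bypass receptors and ligands 16 were tested, 3 were called higher and 5 lower. AXL, a receptor linked to drug tolerance, had 1.66 and 1.38 FPKM in HCC827, against 18.2 and 17.2 FPKM in H1975, a difference of -2.90. MET, the hepatocyte growth factor receptor, had 96.8 and 116 FPKM in HCC827, against 90.9 and 90.6 FPKM in H1975, and was not called. FGFR1 had 0.195 and 0.244 FPKM in HCC827, against 2.80 and 2.40 FPKM in H1975. The ligands PDGFB and FGF2 were called higher, and PDGFB had 10.5 and 9.12 FPKM in HCC827, against 1.34 and 1.69 FPKM in H1975.

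Regulators of the G1 phase were called in both directions, and few proliferation genes were called. Of 20 tested G1 and inhibitor genes 4 were called higher (20%, beside 11.9% of all genes), CDK4 among them. In the other direction 2 were called lower (10%, beside 12.8% of all genes), or 1 after quantile normalization. CDKN1A, the p53-induced inhibitor p21, had 6.53 and 5.79 FPKM in HCC827, against 68.2 and 65.6 FPKM in H1975. CDKN2A, which encodes p16 and ARF, had 92.1 and 85.1 FPKM in HCC827, against 11.4 and 10.6 FPKM in H1975. RB1 had 8.10 and 10.6 FPKM in HCC827, against 1.72 and 1.63 FPKM in H1975, and CDKN1B, p27, was called higher by 1.57. Of 26 proliferation genes, all tested, 1 (CDC20) was called higher and 2 (RRM2 and MCM4) lower, with a median of -0.10. MKI67, the Ki-67 antigen, had 31.4 and 35.2 FPKM in HCC827, against 32.1 and 31.8 FPKM in H1975, and was not called. The share of proliferation genes called (3.85% higher, 7.69% lower) was below that of all genes in both directions.

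Among 14 tested BCL2 family genes 4 were called higher and 1 lower. The pro-apoptotic BH3-only genes BMF and BIK had the largest positive differences, with 27.9 and 27.3 FPKM for BMF in HCC827, against 1.06 and 0.923 FPKM in H1975, and 25.1 and 21.2 FPKM for BIK in HCC827, against 3.29 and 2.73 FPKM in H1975. BBC3 and BCL2A1, a pro-apoptotic and an anti-apoptotic member, were called higher by 1.41 and 1.44. BID, which links death receptors to mitochondria, had 0.0832 and 0.131 FPKM in HCC827, against 4.28 and 5.37 FPKM in H1975. BCL2L11, the BH3-only gene BIM, was not called, at 0.86, nor were MCL1 and BCL2L1. Without the first HCC827 control library 2 members were called lower.

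Glycolysis and hypoxia genes were lower in HCC827 or not called. All 30 list genes were tested, 16 were called lower (53.3%) and none higher (1 higher after quantile normalization), with a median of -1.08. CA9, a carbonic anhydrase and marker of hypoxia, was listed at 0 in both HCC827 libraries and had 14.5 and 17.3 FPKM in H1975, at least 141-fold lower in HCC827. CA12, the related enzyme, had 0.0454 and 0.00952 FPKM in HCC827, against 11.1 and 11.4 FPKM in H1975. ADM, the peptide adrenomedullin, had 3.53 and 3.5 FPKM in HCC827, against 35.6 and 35 FPKM in H1975, and NDRG1 had 16.2 and 14.9 FPKM in HCC827, against 119 and 115 FPKM in H1975. These 4 were among the 5 members with the largest differences.

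Of the enzymes of glycolysis, HK2, hexokinase, had 11.6 and 12.2 FPKM in HCC827, against 51.8 and 53.8 FPKM in H1975, and PGK1 had 151 and 137 FPKM in HCC827, against 324 and 322 FPKM in H1975. PKM and PFKP were called lower, at -1.01 and -1.42, and the transporter SLC2A3 at -2.87. The PKM call was lost without the second HCC827 library (-0.908), with values rescaled to a common total (-0.946) and with median-of-ratios scaling (-0.962). ENO1, VEGFA and SLC2A1 were not called, at -0.14, 0.16 and 0.12. GAPDH and LDHB were not called either, at 0.77 and 0.92, and GAPDH has many pseudogenes that can take its reads. The members thus did not shift as a block.

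The promoters of CA9 and PGK1 are shown because both were called lower in HCC827 and hold the core of the hypoxia response element. Capitals mark ACGTG or its reverse complement CACGT, in RefSeq windows from 250 bases before to 50 after the gene start (GRCh38.p14, 5′ to 3′ on the gene's strand). The CA9 window is chr9:35673678-35673977, strand +, and the PGK1 window is chrX:78103998-78104297, strand +.
CA9: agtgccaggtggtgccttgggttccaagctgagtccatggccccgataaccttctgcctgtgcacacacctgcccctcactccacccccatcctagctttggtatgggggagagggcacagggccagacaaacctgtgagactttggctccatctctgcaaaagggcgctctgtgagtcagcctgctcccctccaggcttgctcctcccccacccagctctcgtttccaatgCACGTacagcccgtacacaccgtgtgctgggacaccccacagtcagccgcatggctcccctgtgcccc
PGK1: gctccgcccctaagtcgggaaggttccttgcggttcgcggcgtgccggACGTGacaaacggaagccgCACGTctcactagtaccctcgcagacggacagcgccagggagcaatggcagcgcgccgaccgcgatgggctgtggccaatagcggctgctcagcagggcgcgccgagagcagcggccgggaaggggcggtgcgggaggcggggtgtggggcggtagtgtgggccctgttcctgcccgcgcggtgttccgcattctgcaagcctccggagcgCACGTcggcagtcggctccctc
ACGTG on either strand occurred in 21.4% of 35116 windows, and a CACGTG holds it on both strands. It was present in at least 1 window of 16 of 27 list genes with a window (59.3%), beside 32.6% of 9262 tested genes. GAPDH, TPI1 and LDHA held it too and were not called, so the letters did not go with the call in every gene.

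Interferon-stimulated genes were more often lower than higher in HCC827, and several varied within a line. Of 30 genes 29 were tested, 11 were called lower and 3 higher, with a median of -0.45. After IFI27, BST2, a restriction factor, had 21.4 and 13.2 FPKM in HCC827, against 118 and 140.0 FPKM in H1975, and IFI6 had 83.6 and 44.4 FPKM in HCC827, against 198 and 243 FPKM in H1975. OAS3, an RNA sensor, had 23.2 and 16.6 FPKM in HCC827, against 60.1 and 75.5 FPKM in H1975. In HCC827 the first library was higher than the second for these 4 genes, and in H1975 the second was higher than the first. DDX60, MX2 and IFI44L were called higher, by 1.74, 1.53 and 1.28 (IFI44L by 0.994 without the first H1975 library, no longer a call). The members called higher numbered 5 after quantile normalization, without the second HCC827 library and without the second H1975 library.

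Some antigen presentation genes were called lower, but the class I list did not shift as a whole. Of 17 class I genes, all tested, 5 were called lower (29.4%, beside 12.8% of all genes) and none higher (beside 11.9%). Their median was 0.09, beside -0.0425 over all genes. HLA-B had 52.4 and 46.0 FPKM in HCC827, against 151 and 159 FPKM in H1975, and B2M, the shared light chain, had 398 and 404 FPKM in HCC827, against 813 and 845 FPKM in H1975. HLA-E was called lower, at -1.19. ERAP2, a peptide-trimming enzyme, had 1.71 and 2.14 FPKM in HCC827, against 29.6 and 30.3 FPKM in H1975. After quantile normalization 2 of the 17 were called lower and 1 higher. HLA reads can be split between related genes and differ by allele, so these values are uncertain. Of 10 class II genes 3 were tested and CD74 and HLA-DMA were called lower, with 1 of them called after median-of-ratios scaling and without the second HCC827 or the second H1975 library.

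Chemokines and cytokines were divided evenly, with 20 of 29 tested, 6 called higher and 6 lower. CX3CL1, a membrane-bound chemokine, had 44.8 and 41.3 FPKM in HCC827, against 2.52 and 3.15 FPKM in H1975. CXCL2, a neutrophil chemokine, was called higher by 2.19. IL11, IL32 and CCL2 were called lower, at -2.84, -1.92 and -1.67. IL18 had 18.5 and 18.2 FPKM in HCC827, against 57.9 and 57.0 FPKM in H1975. Among 20 tested surface proteins that antibodies target, 6 were called higher and 6 lower, and besides FOLR1 and EGFR these included CD70, with 0.384 and 0.318 FPKM in HCC827, against 12.8 and 10.8 FPKM in H1975, and NECTIN4, with 1.03 and 0.821 FPKM in HCC827, against 5.93 and 8.23 FPKM in H1975. CD274, PD-L1, was not called at -0.71.

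Stress and detoxification genes were called in both directions. Of 23 tested NRF2 targets 2 were called higher (4 after quantile normalization) and 7 lower. HMOX1, heme oxygenase, had 12.5 and 11.1 FPKM in HCC827, against 146 and 135 FPKM in H1975, and NQO1 had 27.6 and 24.7 FPKM in HCC827, against 105 and 101 FPKM in H1975. GCLC, which makes glutathione, was called higher by 1.38, and KEAP1 was not called. Of 22 tested genes of the ATF4 response 6 were called higher and 1 lower. ATF4 had 88.0 and 84.0 FPKM in HCC827, against 18.4 and 18.3 FPKM in H1975, and DDIT4, an inhibitor of mTORC1, had 325 and 277 FPKM in HCC827, against 42.5 and 43.3 FPKM in H1975. The ATF4 target TRIB3 was not called, at -0.05.

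Of 15 tested aldehyde dehydrogenases 6 were called higher and 1 lower (2 lower with values rescaled to a common total, with 0.1 added before the log and without the first H1975 control library). ALDH1A3, which makes retinoic acid, had 183 and 192 FPKM in HCC827, against 70.9 and 69.5 FPKM in H1975. Of 16 tested genes of drug metabolism and efflux 5 were called higher and 2 lower. CYP1B1 had 7.17 and 7.59 FPKM in HCC827, against 121 and 115 FPKM in H1975, and CYP2S1 had 15.5 and 15.6 FPKM in HCC827, against 0.633 and 0.336 FPKM in H1975. The efflux transporter ABCG2 was not called, at -0.83.

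Signalling genes were called in both directions too, as were all genes tested (11.9% higher and 12.8% lower). Of 18 tested YAP/TEAD targets 3 were called higher (16.7%) and 5 lower (27.8%), or 3 lower after quantile normalization. ANKRD1, a muscle-type ankyrin repeat protein, had 7.37 and 8.89 FPKM in HCC827, against 57.6 and 56.6 FPKM in H1975. Of 18 tested TGF-beta and BMP genes 3 were called higher (16.7%) and 2 lower (11.1%), near the shares of all genes. With 0.1 added before the log 4 of them were called lower. INHBB, an activin subunit, had 15.2 and 14.4 FPKM in HCC827, against 0.0814 and 0.0391 FPKM in H1975, and GDF15, a stress-induced cytokine, had 7.02 and 6.11 FPKM in HCC827, against 36.8 and 38.6 FPKM in H1975. Of 20 tested Wnt and Notch genes 5 were called higher (25%) and 6 lower (30%). DKK1 and DKK3, secreted Wnt modulators, differed in opposite directions, at -2.19 and 3.18. Of 13 tested S100 genes 2 were called higher (15.4%) and 6 lower (46.2%). S100A11 had 389 and 382 FPKM in HCC827, against 1299 and 1326 FPKM in H1975.

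Cancer-testis genes, silent in most adult tissues, were expressed in different sets. Of 42 cancer-testis genes 11 were tested, 3 were called higher and 4 lower. DDX43 had 12.4 and 12.9 FPKM in HCC827 and was listed at 0 in both H1975 libraries, at least 327-fold higher in HCC827. XAGE1B was called lower with 0.411 and 4.02 FPKM in HCC827, against 77.7 and 6.59 FPKM in H1975, but the libraries of each line differed by about 10 times, the call was lost without the first HCC827 library (limma adjusted p = 0.200) or the second (limma adjusted p = 0.0511), and its copy XAGE1A takes an uncertain share of the reads. Of 39 HOX genes 10 were tested, 5 were called higher and 2 lower (4 lower with 0.1 added before the log). HOXB7, a positional factor, had 4.84 and 5.07 FPKM in HCC827, against 0.0213 and 0.0230 FPKM in H1975.

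Ribosomal protein genes were called higher or not called. Of 28 ribosomal protein genes 5 were called higher (17.9%, beside 11.9% of all genes) and none lower, with a median of 0.45. RPL5 had 2351 and 2421 FPKM in HCC827, against 631 and 625 FPKM in H1975, although pseudogenes make such values uncertain. Of 14 proteasome core genes 1, PSMA3, was called lower (2 without the first HCC827 control library, none after quantile normalization), with a median of -0.48. Of 23 tested genes of cholesterol and fatty acid synthesis 1 was called higher and 3 lower, with a median of -0.02. The regulator SREBF1 was called higher, with 82.3 and 76.6 FPKM in HCC827, against 11.7 and 12.2 FPKM in H1975, whereas SREBF2 and FASN were not called. No gene encoded by the mitochondrial genome and no endothelial marker passed the filter.

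Differences were not spread evenly over the chromosomes. Of the tested genes 99.8% (11360) were placed on GENCODE 29 annotation of GRCh38. Arm medians ran from 0.74 on 12p and 0.65 on 6q to -0.58 on 19p and -0.53 on Xp. On 12p 35.2% of 142 genes were called higher and 6.34% lower, and on 19p 9.66% of 414 genes were called higher and 31.4% lower. In the ZNF263 libraries of the same lines, which share no library with the controls, the medians were 0.62 on 12p, 0.52 on 6q, -0.75 on 19p and -0.62 on Xp. Other arms that were high in controls were not alike in the ZNF263 libraries. On 13q and 1p the medians were 0.53 and 0.46 in controls and 0.48 and 0.39 in the ZNF263 libraries. Medians on Xq, 6p and 22q were 0.50, 0.43 and 0.38 in controls but near 0 in the ZNF263 libraries, at 0.02, 0.00479 and -0.06.

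Longer runs of neighbours with a shared direction stood out when medians were taken over 11 successive genes, a choice made after the values were seen. Of 11130 such windows 675 had a median of at least 1 in size, and merging them gave 20 runs higher and 27 lower in HCC827. The longest higher run was chr1:39757182-97995000, with 242 tested genes, a median of 1.31 and 166 genes called higher (68.6%) against 4 lower. RPL5 and EDN2 lie in it. Chromosome 19 held 11 runs, 2 higher and 9 lower. In chr19:51345169-55087923, 46 of 60 genes were called lower (76.7%), with a median of -1.57. In chr19:19119169-29715789, 37 of 50 genes were called lower (74.0%), with a median of -1.42. In chr19:38899700-42228201, 33 of 57 genes were called higher (57.9%), CEACAM6 among them, with a median of 1.09. A run on 11q, chr11:66050729-68036644, had 29 of 49 genes called lower, with a median of -1.28. In the ZNF263 libraries the medians of these 5 runs had the same sign, at 1.21, -0.80, -0.84, 0.91 and -0.97. All 47 runs had a ZNF263 median of the same sign, and in 32 it was at least 0.5 in size. A lower run on 8q with a control median of -1.10 had -0.04 in the ZNF263 libraries, and a higher run at chr19:16630751-18281622 with 0.97 in controls had 0.08. Whether copy number differs in these runs was not tested.

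ZNF263 itself was nearly level in the controls. The gene, at chr16:3263800-3301401 (GRCh38, GENCODE 29), had 13.2 and 11.8 FPKM in HCC827, against 10.2 and 9.63 FPKM in H1975, a difference of 0.31 ± 0.10 (SE, limma adjusted p = 0.00865) below the size needed for a call. In the libraries labelled ZNF263 it had 19.6 and 19.8 FPKM in HCC827, against 39.1 and 39.8 FPKM in H1975. ZNF263 was thus raised further above the controls in H1975 than in HCC827. Line and amount of ZNF263 therefore cannot be told apart in the comparisons with ZNF263 libraries. The lines were also compared in the ZNF263 libraries, and the difference between both line contrasts was tested as an interaction. Both results came from a limma fit of all 8 libraries, so the spread used for the ZNF263 libraries came partly from the controls.

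In the ZNF263 libraries 2836 genes were called (24.9%), 1522 higher in HCC827 (13.4%) and 1314 lower (11.5%). Of the 2814 control calls 1830 (65.0%) were called in the same direction there, which is 64.5% of the ZNF263 calls, and 11 in the opposite direction. The line differences themselves differed for 1069 genes (9.39%), 684 with a more positive (6.01%) and 385 with a more negative value (3.38%) in the ZNF263 libraries, and for 1614 genes with 0.1 in place of 1 added before the log.

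Most junction genes had a larger line difference in the ZNF263 libraries than in the controls. Of the 30 genes 22 were called higher in HCC827 and 1 lower in the ZNF263 libraries, against 7 and 2 in the controls, and the median was 2.39, against 0.35. The interaction was called positive for 24. EPCAM had 286 and 282 FPKM in HCC827 ZNF263 libraries, against 31.2 and 32.2 FPKM in H1975 ZNF263 libraries, and the interaction was 2.83 ± 0.08 (SE, limma adjusted p = 3.7e-10). CDH1 had 136 and 136 FPKM in HCC827 ZNF263 libraries, against 12.5 and 14.4 FPKM in H1975 ZNF263 libraries, with an interaction of 2.29. The HCC827 values were close to those of the HCC827 controls, and the H1975 values lay below those of the H1975 controls. Of the 14 epithelial regulators 11 were called higher there, and ESRP1 had an interaction of 2.87.

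Positive interactions were also common among interferon genes. Of the 29 tested, 11 were called higher and 2 lower in HCC827 ZNF263 libraries, against 3 and 11 in the controls, with 16 positive interactions. IFI27 had 6.69 and 5.91 FPKM in HCC827 ZNF263 libraries, against 54.4 and 46.6 FPKM in H1975 ZNF263 libraries, an interaction of 3.45 ± 0.33 (SE). RNASE7 and S100A2, near the top of the control differences, had interactions of 4.13 and 3.16.

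Hypoxia genes were called lower in both kinds of library. Of the 30 glycolysis and hypoxia genes 17 were called lower and none higher in HCC827 ZNF263 libraries, with a median of -1.31, and the interaction was negative for 4 and positive for 1. CA9 had 0.0367 and 0 FPKM in HCC827 ZNF263 libraries, against 100 and 94.3 FPKM in H1975 ZNF263 libraries. COL1A2, a fibrillar collagen, had 0.213 and 0.301 FPKM in HCC827 ZNF263 libraries, against 169 and 164 FPKM in H1975 ZNF263 libraries, with an interaction of -3.44. Of the 15 tested alveolar genes 12 were called higher and 2 lower in HCC827 ZNF263 libraries, and NKX2-1 differed by 4.64 there. EGFR differed by 3.73 and CDK4 by 4.07 in the ZNF263 libraries.

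**Figure D5:**
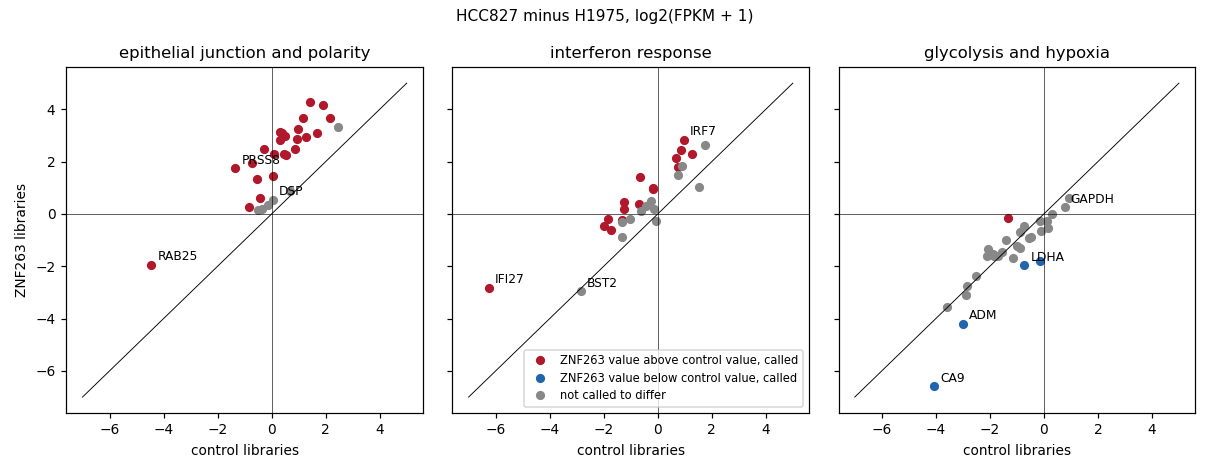
Difference between HCC827 and H1975 on the log2(FPKM + 1) scale in ZNF263 libraries (vertical axis) and control libraries (horizontal axis) for 3 gene lists, with the line of equal values. Colour shows whether the interaction was called, red where the ZNF263 value was above the control value and blue where it was below. Most junction genes (24 of 30) and 16 of 29 interferon genes lie above the line, whereas most glycolysis and hypoxia genes lie close to it, with CA9 below.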

How the data were processed

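Expression was measured by RNA-seq in 12 libraries of 3 lines, and the 4 control libraries of HCC827 and H1975 were compared. The authors deposited FPKM values, with 1 column per library. The genome build was GRCh38.p13, per the submitters' processing notes. Which aligner, counter, annotation or strand setting was used is not given in the sources used here. RNA was extracted with TRIZOL and prepared with the SMARTER kit for mRNA, per the labels' protocols. Libraries were grouped by their cell line and genotype labels. Because the table leaves a gene blank for a whole line, genes without values in either line were dropped, and the PC9 libraries were used only in 1 alternative estimate of the spread.

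Genes with at least 1 FPKM in 2 of the 4 control libraries were tested on log2(FPKM + 1) with limma 3.58.1 (R 4.3.3, eBayes with a trend) and Benjamini-Hochberg adjustment over all genes tested. The spread of the control comparison came from the 4 control libraries. The comparison in the ZNF263 libraries and the interaction were fitted on all 8 libraries of both lines. Reads per library were recovered from the whole multiples in the FPKM values (Python 3.11.15). A depth off by a factor of 2 would give 2 libraries unequal shares of even read numbers, and these shares lay between 31.9% and 34.7%. Values against a line at 0 use a floor of 3 reads per library. PCR reads are not independent molecules, so the floors cover counting error only.

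Gene lists, members and comparisons were chosen with earlier results of these data known. Named genes are the 12 with the largest difference in each direction averaging 10 FPKM or more in the higher line, EGFR, ZNF263, the 5 highest of the genes present in 1 line only, and members of gene lists, starting with the largest called differences. Some genes that this rule takes in are not reported here. Genes near EGFR, near CDK4 and in runs were named after their values were seen. Positions came from GENCODE 29, and promoter windows and motif shares from RefSeq on GRCh38.p14. Alternatives were another added value (0.1), other filters, scalings and spread estimates, a replicate block and leaving out each library.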

Additional observations from a re-analysis of the deposited data

Results flagged for a closer look

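The difference between HCC827 and H1975 was not the same in ZNF263 libraries and in control libraries for 1069 genes (limma interaction, adjusted p under 0.05 and at least 1 in size). ZNF263 itself was raised further in H1975 than in HCC827, so line and amount of ZNF263 cannot be told apart here. For 11 genes the lines were called in opposite directions. Of these, 10 were lower in HCC827 controls than in H1975 controls and higher in HCC827 ZNF263 than in H1975 ZNF263 libraries. MMP1, a collagenase, had the largest interaction at 3.76, with means of 5.0 FPKM in HCC827 ZNF263 and 1.66 FPKM in H1975 ZNF263 libraries, against 2.60 FPKM in HCC827 and 20.7 FPKM in H1975 controls. PRSS8, a membrane serine protease, had an interaction of 3.09, and the transcription factors EHF and FOXA2 had 2.95 and 2.64. TMEM30B (a lipid flippase subunit), ZNF185 (a LIM domain protein), CBLC (an epithelial ubiquitin ligase), IFITM1 (an interferon-induced membrane protein), S100P and JAG2 (a Notch ligand) had interactions of 2.92, 2.90, 2.82, 2.59, 2.29 and 2.03. S100A4 went the other way at -3.41, with means of 15.8 FPKM in HCC827 ZNF263 and 42.1 FPKM in H1975 ZNF263 libraries, against 15.3 FPKM in HCC827 and 2.87 FPKM in H1975 controls.

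Some genes had values in 1 line only and could not enter the comparison, 714 in HCC827 and 758 in H1975. At 1 FPKM or more in a control library there were 21 in HCC827 and 16 in H1975. Control means in HCC827 were 18.6 FPKM for CHIA, a chitinase, 14.1 FPKM for HAVCR1, a phosphatidylserine receptor, and 11.3 FPKM for TSPYL5. Control means in H1975 were 795.8 FPKM for MT1E, a metallothionein, 30.5 FPKM for PSG4, 23.9 FPKM for GSTT2B and 15.6 FPKM for PYCARD, the inflammasome adaptor. Whether a blank means no reads was not tested.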

How the results depend on the processing

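The number of control calls was 2814 and lay between 2746 and 2878 with 1 library left out. It lay between 2056 (at least 5 FPKM, which tests fewer genes) and 3532 over all alternatives run, and the share of calls that were higher in HCC827 between 46.4% and 52.5%. Calls in the ZNF263 libraries lay between 2807 and 2865, and interactions between 1057 and 1112, with 1 library left out. With 0.1 in place of 1 added before the log, 1614 interactions were called, 1047 of them positive, and the cause was not tested. With the replicate number as a block, 2814 control calls, 2837 ZNF263 calls and 1069 interactions were counted. Libraries with the same number deviated together only weakly, with correlations across the tested genes of 0.0933 in controls and 0.066 in ZNF263 libraries. With 2 libraries per group, these values cannot settle whether libraries with the same number were handled together.

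Genes that changed sign were not called in any case. DUSP6 was at 0.0217 with values rescaled to a common total, 0.00509 with median-of-ratios scaling and 0.0177 after quantile normalization. TRIB3 was at 0.0152 rescaled, 0.156 after quantile normalization and between -0.11 and 0.0146 with 1 library left out, and MKI67 between -0.0251 and 0.135 with 1 library left out. After quantile normalization alone AQP4, HLA-E, PGK1 and PSMA3 fell below the size threshold, at 0.999, -0.995, -0.965 and -0.875. B2M and MCM4 fell below it with values rescaled to a common total as well, at -0.983 and -0.996. Some genes that were not called passed the thresholds elsewhere. CDH1 did so under 5 alternatives, at 1.01 to 1.17, ESRP1 and LDHB after quantile normalization, at 1.02 and 1.08, BCL2L11 with values rescaled to a common total, at 1.01, and ABCG2 with 0.1 added, at -1.16.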
